A study of Mus musculus with 16 samples.

Results

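The 10 genes described here encode heat-shock chaperones: Hspa1a, Hspa1b, Hspa8, Hsph1, Hsp90aa1, Hsp90ab1, Dnajb1, Dnaja1, Hspe1 and Hspd1, out of 46517 gene identifiers measured. They were picked by mouse symbol, and they were chosen by measured values as well, since earlier results of these same comparisons were known when the list was drawn up. Values of the 10 genes across the groups are therefore given as a description, without p-values, and their counts of calls are set beside the share of all genes called. The list was named for cytosolic proteins. That name does not hold for Hspe1 and Hspd1, whose products form the chaperonin of the mitochondrial matrix, so the 10 are called heat-shock genes here.

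The RNA came from sorted live thymocytes of the CD4+CD8+ stage, taken from 16 NOD mice aged 6 to 7 weeks, all of which carried the AI4 T cell receptor transgene. The first group was NOD-AI4-60A, which also carries an Nfkbid transgene (5 mice, 3 males and 2 females). The second was labelled NOD-AI4-Nfkbid-/- (5 mice, 4 males and 1 female), and the controls were NOD-AI4 without either change (6 mice, 3 males and 3 females). The labels give neither the promoter that drives the Nfkbid transgene nor the knockout allele, and they do not say how many founder lines were used. Nfkbid encodes IκBNS, a nuclear IκB protein.

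Nfkbid averaged 208.0 ± 72.1 CPM (counts per 1000000, SD over 5 mice) in transgenic libraries, 31.6 ± 4.29 CPM (5 mice) in libraries labelled knockout and 32.7 ± 2.87 CPM (6 mice) in controls, so the ablation is not visible in the gene's counts and these libraries are called knockout-labelled. Totals ran between 17955743 and 35637813 estimated counts per library, with the highest in knockout replicate 4. Control males had deeper libraries than control females. All control mice had identifiers of 1 prefix and all other mice identifiers of another, so what sets the controls apart may be their genotype or their identifier series, which cannot be told apart here. The defining markers of CD4+CD8+ thymocytes were present in every library, at a summed 5165 to 5811 CPM in transgenic, 5283 to 6716 CPM in knockout-labelled and 4996 to 7642 CPM in control libraries. Among them, Cd4, Cd8a, Cd8b1, Rag1 and Rag2 were called lower in transgenic than in control libraries, and Cd4 was called lower in knockout-labelled ones. In bulk RNA, fewer cells of a type and less RNA per cell cannot be told apart.

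Heat-shock proteins keep other proteins folded. HSP70 proteins bind unfolded stretches in a cycle driven by ATP, J-domain partners bring clients and start the cycle, HSP110 proteins exchange the nucleotide, and HSP90 takes over clients such as kinases and steroid receptors at a later step. Heat or misfolded protein releases the transcription factor HSF1, which binds arrays of inverted GAA units in the promoters of these genes. The constitutive members are abundant in unstressed cells, thymocytes included, whereas the inducible HSP70 genes are known to respond to warming and handling of tissue.

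Promoters are shown because HSF1 is known to bind arrays of GAA units in heat-shock promoters, and the matches were not related to the levels. The RefSeq table of windows reaching from 250 bases before to 50 bases after each gene start (build GRCm38.p6) held 12 windows for 7 of the 10 genes, and none for Hspa8, Hsp90aa1 and Hsp90ab1. On either strand, 2 adjacent inverted units spell GAANNTTC or TTCNNGAA, and 3 units spell GAANNTTCNNGAA or TTCNNGAANNTTC, in which pairs overlap. Pairs stood in at least 1 window of 6 of the 7 genes and triples in those of 3, where 17.0% of all 27025 genes had a window with a pair and 0.662% one with a triple. By windows, 7 of the 12 held a pair and 4 a triple, beside 15.1% and 0.603% of all 32851 windows. The 12 windows are not separate observations, since copies and overlapping windows repeat the same letters. The units of matched pairs are in capitals.
Hspa1a (chr17:34972107-34972406, minus strand): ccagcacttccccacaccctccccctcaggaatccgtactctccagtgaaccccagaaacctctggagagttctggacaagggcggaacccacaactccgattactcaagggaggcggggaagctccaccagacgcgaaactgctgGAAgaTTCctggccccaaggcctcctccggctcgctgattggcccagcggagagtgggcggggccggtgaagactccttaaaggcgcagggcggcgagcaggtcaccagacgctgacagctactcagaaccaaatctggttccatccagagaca
Hspa1b (chr17:34959189-34959488, minus strand): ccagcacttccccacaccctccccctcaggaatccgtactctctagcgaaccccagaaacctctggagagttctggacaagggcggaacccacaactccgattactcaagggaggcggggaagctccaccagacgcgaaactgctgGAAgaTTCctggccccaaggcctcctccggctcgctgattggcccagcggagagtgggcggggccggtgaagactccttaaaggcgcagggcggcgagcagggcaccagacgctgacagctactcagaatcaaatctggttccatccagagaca
Hsph1 (chr5:149636287-149636586, minus strand): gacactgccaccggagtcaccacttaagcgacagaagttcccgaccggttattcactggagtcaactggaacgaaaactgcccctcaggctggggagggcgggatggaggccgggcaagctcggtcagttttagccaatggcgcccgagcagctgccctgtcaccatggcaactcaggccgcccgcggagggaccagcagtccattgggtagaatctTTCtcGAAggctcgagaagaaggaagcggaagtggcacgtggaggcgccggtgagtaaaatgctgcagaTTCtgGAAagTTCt
Hspe1 (chr1:55087898-55088197, plus strand): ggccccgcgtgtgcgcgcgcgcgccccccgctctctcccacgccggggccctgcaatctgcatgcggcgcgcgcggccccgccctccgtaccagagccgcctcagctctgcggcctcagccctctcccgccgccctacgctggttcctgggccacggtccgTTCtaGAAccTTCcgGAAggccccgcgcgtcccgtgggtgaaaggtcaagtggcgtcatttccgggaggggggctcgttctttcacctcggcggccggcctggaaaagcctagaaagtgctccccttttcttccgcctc

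The Hspa1a and Hspa1b windows were identical in 296 of 300 bases, and each held 1 pair that began 104 bases before the gene start (position -104). Hsph1 held 3 pairs, beginning at positions -33, 36 and 41 relative to its start, with the last 2 forming a triple. Hspe1 held a run of 3 overlapping pairs from positions -89 to -79, which makes 2 triples. A second window of Hspd1 (chr1:55087883-55088182, minus strand) reads the same run from the opposite strand, because Hspe1 and Hspd1 lie head to head and their annotated ends overlap by 112 bases. Dnaja1 held 1 pair in 1 of its windows, at position -124. Neither window of Dnajb1 held a pair, which says only that these letters are not in those windows. The letters TATAAA, present in 8.32% of all windows, occurred in none of the 12.

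Hspa1a and Hspa1b encode the same stress-inducible HSP70 and were the members that varied most between mice. They lie on chromosome 17 (GRCm38), Hspa1a (ENSMUSG00000091971) at 34969190 to 34972156 and Hspa1b (ENSMUSG00000090877) at 34956436 to 34959238, both on the minus strand with 9951 bases between them. Of the 50-base windows of their transcripts, 58.8% of those of Hspa1a and 62.3% of those of Hspa1b occur in the other gene, so the authors' counting could split reads between them and the sum of the pair is the safer value.

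The summed level of Hspa1a and Hspa1b was 1.55, 4.04, 0.761, 1.16 and 0.760 CPM in transgenic replicates 1 to 5. Knockout-labelled replicates 1 to 5 had 4.12, 0.490, 5.09, 14.4 and 39.9 CPM. Control males had 100.7, 174.2 and 181.5 CPM, and control females had 6.85, 19.4 and 2.18 CPM. All 5 transgenic libraries were low, the knockout-labelled ones were spread over a wide range, and the 3 control males stood above every other library. The transgenic range overlapped that of the control females, as did the knockout-labelled range. In knockout replicate 2, Hspa1a had 0 estimated counts, which allows up to 3 counts, or 0.128 CPM, by counting error alone.

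Fitted over the 16 libraries with sex as a term, the sum had a log2 fold change of -4.92 (SE 1.22) for transgenic over control mice. For knockout-labelled over control mice it was -2.76 (SE 0.92), and for transgenic over knockout-labelled mice it was -2.17 (SE 1.29). Taken singly, Hspa1a had log2 fold changes of -4.86 (SE 1.17) and -2.55 (SE 0.88) for transgenic and knockout-labelled over control mice. Hspa1b had -5.08 (SE 1.26) and -2.94 (SE 0.94) in the same comparisons. These values turned on the 3 control males. Without them Hspa1a stood at -2.18 and Hspa1b at -2.56 for transgenic over control mice, and the values for knockout-labelled over control mice changed sign, to 0.63 for Hspa1a and 0.48 for Hspa1b.

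**Figure D1:**
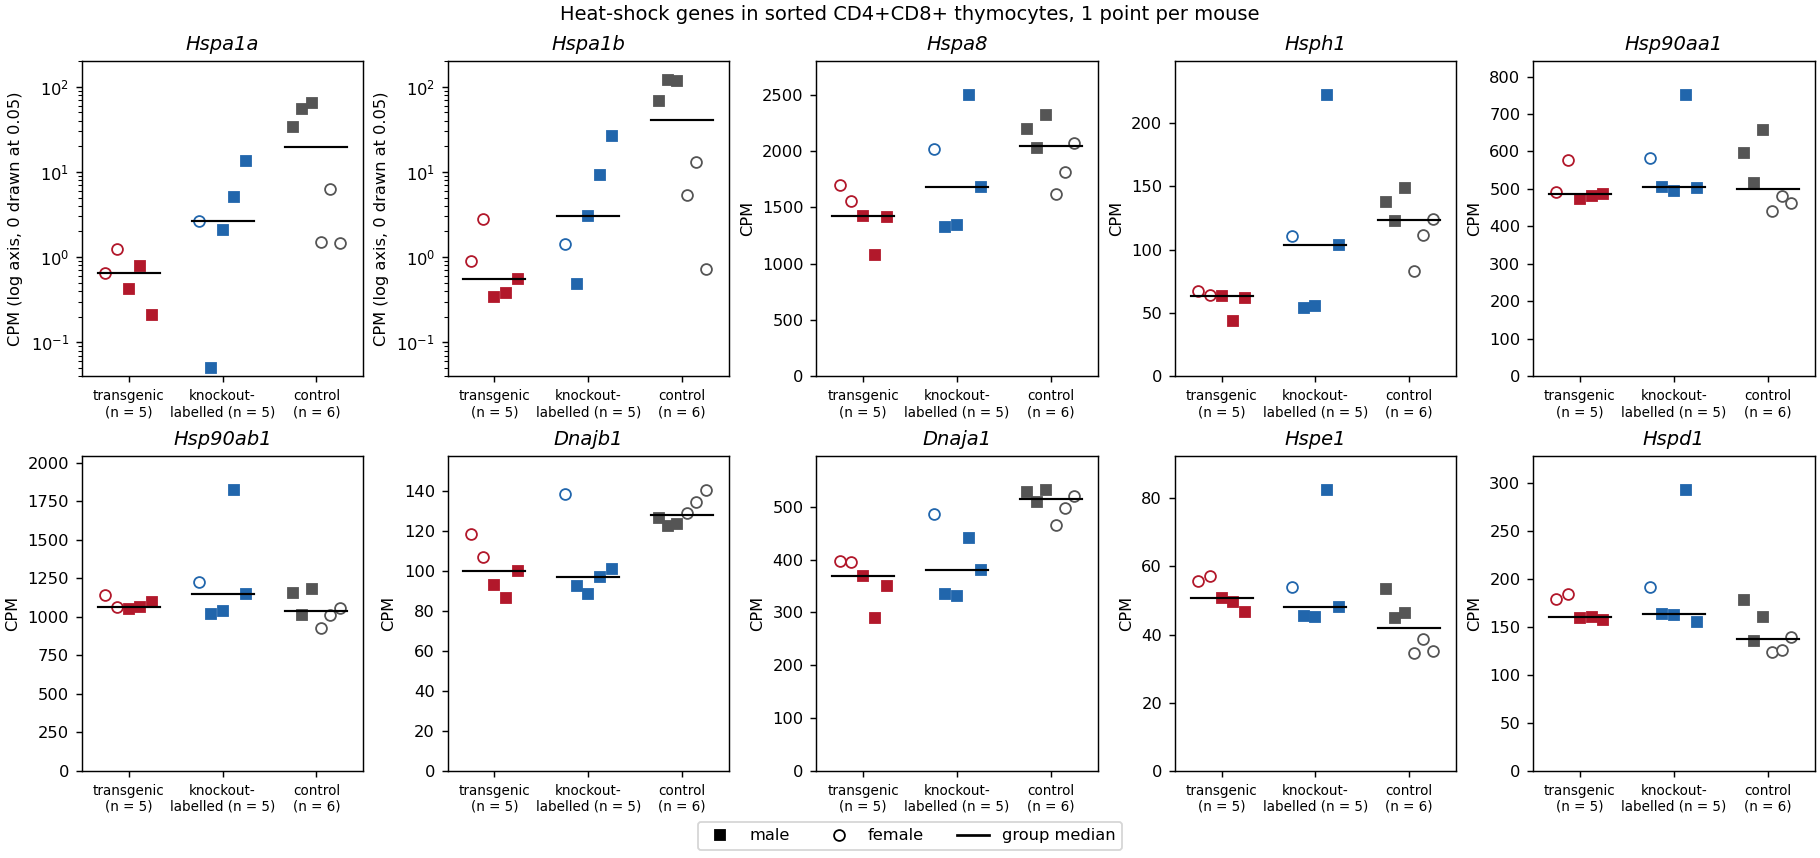
Level of each heat-shock gene in every library, in CPM, with 1 point per mouse, squares for males, circles for females and a bar at the group median. The axes of Hspa1a and Hspa1b are logarithmic, with a value of 0 drawn at 0.05. The control males stood at 67.4 to 118.9 CPM of Hspa1b, above all other libraries, and knockout replicate 4 was the highest of the 16 libraries in 6 genes.

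Immediate-early genes, which respond quickly to stimuli that include tissue handling, moved beside the inducible pair. Of 10 immediate-early genes listed, 9 were tested, and 6 of them (Dusp1, Fos, Fosb, Jun, Junb and Ppp1r15a) were called lower in transgenic and in knockout-labelled libraries against controls, where 15.6% and 10% of all genes were called lower. This list was also drawn up with earlier results known, so its values are a description. Fos, an early-response subunit of the AP-1 transcription factor, averaged 6.18 ± 1.21 CPM in transgenic, 9.85 ± 10.4 CPM in knockout-labelled and 81.9 ± 27.6 CPM in control libraries (SD, n = 5, 5 and 6). Its log2 fold change was -3.75 (SE 0.50) for transgenic over control mice and -3.21 (SE 0.49) for knockout-labelled over control mice. Jun, its partner in AP-1, had log2 fold changes of -3.25 (SE 0.52) and -3.07 (SE 0.52) in the same comparisons. Among the knockout-labelled libraries, replicate 5 had the highest summed HSP70 pair and also the highest Fos, at 28.3 CPM. The order was not kept in the control females, where replicate 6 had the highest summed immediate-early level of all 16 libraries (1073 CPM) and the lowest HSP70 pair of the controls (2.18 CPM). The part of the immediate-early response in the HSP70 levels was not tested.

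Over the 16 libraries, the 6 genes whose log2 profile lay closest to that of the summed HSP70 pair were Fos, Gm10382, Jun, Xlr3b, Smoc1 and Ppp1r15a. Closeness was the root mean square difference of log2(CPM + 0.5) values centred on each gene's mean, among the 12697 genes that averaged 1 CPM or more. It was 1.68 for Fos and 2.04 for Ppp1r15a, against a spread of 2.47 in the pair itself. On this root mean square scale, even the nearest profiles differed from the pair by most of its own spread.

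Hspa8 encodes HSC70, the constitutive HSP70, and was the most abundant member per unit length. The deposited TPM values, which account for transcript length, averaged 1752 ± 265 in transgenic, 2225 ± 554 in knockout-labelled and 2591 ± 286 in control libraries (SD, n = 5, 5 and 6). Below it in every group stood Hsp90ab1, at 722.3 ± 37.4, 854 ± 208 and 808 ± 76.9 TPM in transgenic, knockout-labelled and control libraries. The lowest Hspa8 value of the 16 libraries, 1354 TPM, lay above the highest Hsp90ab1 value, 1210 TPM. Dnaja1 averaged 536, 605 and 800 TPM and Hsp90aa1 494, 590 and 603 TPM in transgenic, knockout-labelled and control libraries. The ranges of both genes overlapped in every group, in controls only just, with a lowest Dnaja1 value of 744.8 TPM and a highest Hsp90aa1 value of 745.5 TPM. Those of Dnaja1 and Hsp90ab1 overlapped in knockout-labelled and in control libraries but not in transgenic ones.

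A lower tier of levels held Hspd1 at 145, 173 and 125 TPM and Hspe1 at 117, 126 and 99.2 TPM in transgenic, knockout-labelled and control libraries, followed by Dnajb1 at 70.3, 74.1 and 96.7 TPM and Hsph1 at 41.2, 76.6 and 89.7 TPM. In controls, the range of Hspe1 overlapped those of Hspd1, Dnajb1 and Hsph1, that of Hsph1 overlapped those of Hspd1 and Dnajb1, and in knockout-labelled libraries the range of Hsph1 overlapped those of the other three and that of Hspd1 overlapped that of Hspe1, so these orders are not resolved. In transgenic libraries no neighbours of this tier overlapped. The inducible genes came last in all groups, with Hspa1b at 0.551 ± 0.565, 4.76 ± 6.43 and 32.5 ± 33.4 TPM and Hspa1a at 0.352 ± 0.205, 2.57 ± 2.95 and 15.5 ± 16.2 TPM in transgenic, knockout-labelled and control libraries. Levels between members carry a further limit, because 67.3% of the 50-base windows of Hspa8 transcripts, 50.1% of those of Hsp90aa1, 39.7% of those of Hspd1 and 36.1% of those of Hspe1 also occur in transcripts of another annotated gene. For Dnaja1 the share was 17.7%, for Hsp90ab1 4.13%, for Dnajb1 0.38%, and for Hsph1 0.

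On the CPM scale, Hspa8 (chromosome 9, 40800984 to 40810087) had 1697, 1555, 1420, 1081 and 1410 CPM in transgenic replicates 1 to 5. Knockout-labelled replicates 1 to 5 had 2015, 1322, 1343, 2499 and 1677 CPM. Controls ran from 1620 over a median of 2048 to 2320 CPM. Only transgenic replicate 1 reached the lowest control. The log2 fold change was -0.49 (SE 0.16) for transgenic over control mice, -0.17 (SE 0.17) for knockout-labelled over control mice and -0.32 (SE 0.17) for transgenic over knockout-labelled mice. Without the 3 control males, the first of these was -0.19 and the second was 0.18. The 6 genes closest to Hspa8 across the libraries were Ahsa2, Chordc1, St13, Tle1, Ccdc117 and 2810002D19Rik, with root mean square differences of 0.17 to 0.19 against a spread of 0.33 in Hspa8. Chordc1 and Ahsa2 are HSP90 co-chaperone genes and St13 encodes the HSP70-interacting protein Hip.

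Hsph1 encodes HSP105, the HSP110 protein that exchanges nucleotide on HSP70 (chromosome 5, 149614287 to 149636376). It had 67.1, 64.3, 63.7, 43.7 and 61.6 CPM in transgenic replicates 1 to 5 and 110.6, 53.5, 55.1, 222.2 and 104 CPM in knockout-labelled replicates 1 to 5. Controls ran from 82.8 over a median of 123.1 to 148.6 CPM. Every transgenic library lay below every control, whereas the knockout-labelled libraries lay on both sides of the control range. Its log2 fold change was -1.01 (SE 0.33) for transgenic over control mice and -0.17 (SE 0.33) for knockout-labelled over control mice. The value for transgenic over knockout-labelled mice was -0.85 (SE 0.35). Knockout replicate 4 weighed on both comparisons with its group: without it the log2 fold change was -0.60 for knockout-labelled over control mice and -0.44 for transgenic over knockout-labelled mice.

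Both J-domain genes lay below controls in every transgenic library. Dnajb1, which encodes the main HSP40 partner of inducible HSP70 (chromosome 8, 83608193 to 83612653), had 118.3, 106.8, 92.8, 86.5 and 100.1 CPM in transgenic replicates 1 to 5. It had 138.4, 92.7, 88.6, 96.8 and 100.9 CPM in knockout-labelled replicates 1 to 5, and 122.7 to 140.7 CPM with a median of 127.7 CPM in controls. All transgenic libraries and 4 of the 5 knockout-labelled ones lay below every control. The log2 fold change was -0.34 (SE 0.07) for transgenic over control mice, -0.26 (SE 0.07) for knockout-labelled over control mice and -0.08 (SE 0.07) for transgenic over knockout-labelled mice.

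Dnaja1, a farnesylated J-domain partner of HSC70 (chromosome 4, 40722150 to 40737149), had 397, 395.4, 369.8, 289.6 and 349.6 CPM in transgenic replicates 1 to 5. It had 486.7, 334, 331.4, 441.1 and 379.7 CPM in knockout-labelled replicates 1 to 5. Controls ran from 465.6 over a median of 514.5 to 532.6 CPM, and again all transgenic and 4 of 5 knockout-labelled libraries lay below every control. Its log2 fold change was -0.49 (SE 0.09) for transgenic and -0.33 (SE 0.09) for knockout-labelled over control mice, and -0.16 (SE 0.10) for transgenic over knockout-labelled mice. In both J-domain genes the exception was knockout replicate 1, the only female of its group. Without the 3 control males, Dnajb1 stood at -0.19 and -0.09 and Dnaja1 at -0.28 and -0.10 for transgenic and knockout-labelled over control mice.

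On the CPM scale the HSP90 genes stayed close between the groups. Hsp90ab1, the constitutive HSP90 beta (chromosome 17, 45567775 to 45573271), averaged 1084 ± 35.8 CPM in transgenic, 1252 ± 332 CPM in knockout-labelled and 1058 ± 95.4 CPM in control libraries (SD, n = 5, 5 and 6). Hsp90aa1, the inducible HSP90 alpha (chromosome 12, 110690605 to 110702728), averaged 502.5 ± 42.6, 567 ± 109 and 525.8 ± 84.3 CPM in transgenic, knockout-labelled and control libraries. The groups overlapped in both genes. For transgenic over control mice the log2 fold change was 0.03 (SE 0.12) in Hsp90ab1 and -0.07 (SE 0.12) in Hsp90aa1. For knockout-labelled over control mice it was 0.23 (SE 0.12) and 0.09 (SE 0.12), and without knockout replicate 4 it was 0.04 and -0.05. The deposited TPM values differed more: Hsp90aa1 ran from 469.7 to 514.6 in transgenic and from 509.4 to 745.5 in control libraries. Hsp90ab1 averaged 722.3 TPM in transgenic and 808 TPM in control libraries, the reverse of its order in CPM.

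The mitochondrial chaperonin genes had higher averages in both other groups than in controls, but edgeR called neither. Hspd1, which encodes the HSP60 ring (chromosome 1, 55077835 to 55088243), averaged 168.3 ± 12.7 CPM in transgenic, 193.2 ± 57.7 CPM in knockout-labelled and 144 ± 21.2 CPM in control libraries. Hspe1, which encodes its HSP10 lid (chromosome 1, 55088132 to 55091307), averaged 52.1 ± 4.35, 55.1 ± 15.8 and 42.2 ± 7.31 CPM in transgenic, knockout-labelled and control libraries. Both had positive log2 fold changes against controls, 0.22 (SE 0.15) in Hspd1 and 0.30 (SE 0.15) in Hspe1 for transgenic mice, and 0.41 (SE 0.16) and 0.36 (SE 0.16) for knockout-labelled mice. The control females were the lowest libraries for Hspe1, at 34.7, 38.8 and 35.1 CPM, and among males alone the log2 fold change of Hspe1 for transgenic over control mice was 0.001. Hspd1 averaged 159.1 CPM in transgenic males and 158.2 CPM in control males, and 182.1 and 129.8 CPM in the females of these groups. Knockout replicate 4 had 293.3 CPM of Hspd1, where the others of its group had 155.3 to 191.9 CPM. For Hspe1 it had 82.6 CPM, where the others had 45.0 to 54.0 CPM. The sources used here do not say whether counting used strand, so reads over the 112 shared bases of this gene pair could have been counted for either gene.

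**Figure D2:**
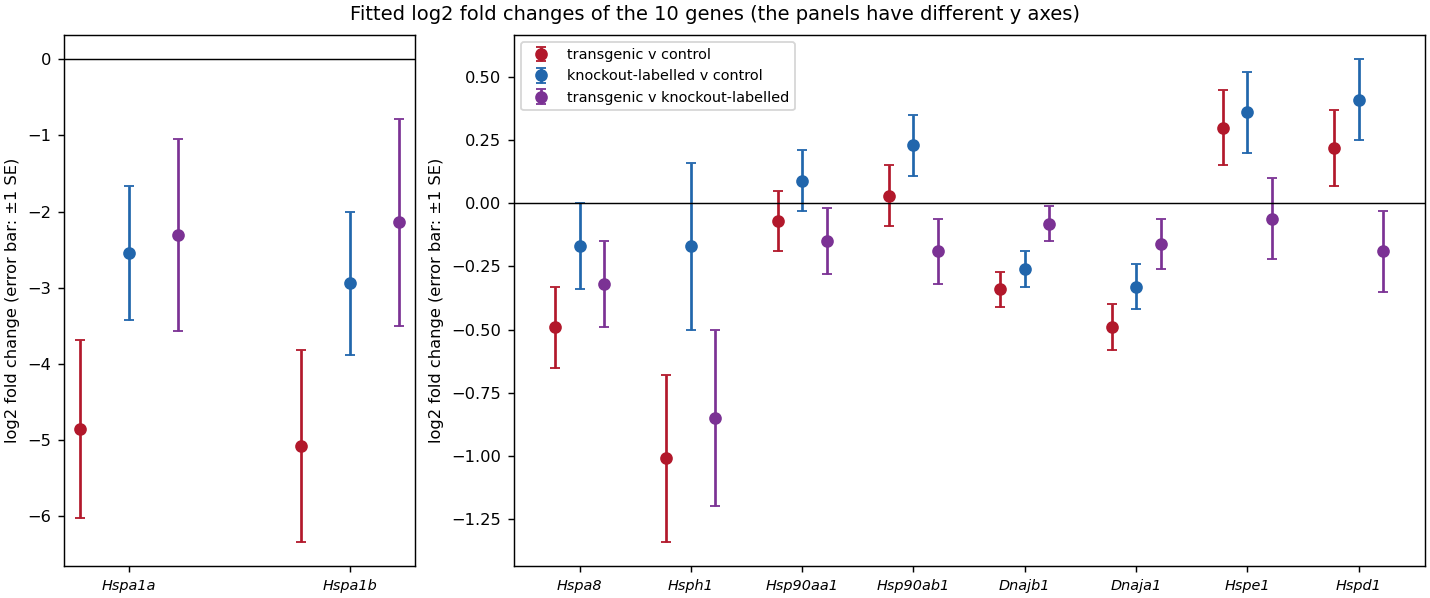
Fitted log2 fold changes of the 10 genes with bars of 1 SE, for transgenic over control, knockout-labelled over control and transgenic over knockout-labelled mice. The inducible HSP70 genes have a y axis of their own, since their values reach -5.08, while the 8 others lie between -1.01 and 0.41.

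Across the 10 genes, 6 were called lower and 0 higher in transgenic than in control mice at an edgeR adjusted p under 0.05 (Hspa1a, Hspa1b, Hspa8, Hsph1, Dnajb1 and Dnaja1), where 15.6% of all 14933 genes tested were called lower, 23.0% higher and 38.6% in either direction. In knockout-labelled against control mice 4 were called lower and 0 higher (Hspa1a, Hspa1b, Dnajb1 and Dnaja1), where 10% of all genes were called lower, 16.4% higher and 26.4% in either direction. DESeq2 also called 4, with Hspa1b, Dnajb1 and Dnaja1 lower and Hspd1 higher, beside 4334 of all genes. Without the sex term, edgeR called Dnajb1 and Dnaja1 lower and Hspd1 higher, beside 4270 of all genes, and neither Hspa1a nor Hspa1b. Between transgenic and knockout-labelled mice 0 of 10 were called by edgeR, 1 had an unadjusted p under 0.05, DESeq2 also called 0, and 1.17% of all genes were called in either direction. Groups that did not overlap were found for 4 members below controls in transgenic mice (Hspa1a, Hsph1, Dnajb1 and Dnaja1), beside 7.87% of all genes, and for 0 members in knockout-labelled mice, beside 5.33%. Since the 10 genes were chosen with these comparisons known, nothing is read from the counts. All 10 members passed the filter on low counts, although Hspa1b reached 10 counts in 3 of 5 transgenic, 5 of 5 knockout-labelled and 6 of 6 control libraries.

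The median log2 fold change of the 10 genes was -0.42 for transgenic over control mice, -0.17 for knockout-labelled over control mice and -0.19 for transgenic over knockout-labelled mice, where the medians of all genes were 0.03, 0.02 and 0. All 10 values for transgenic over knockout-labelled mice were negative, and without knockout replicate 4 that of Hspe1 was 0.12. Without the 3 control males 0 members were called by edgeR in either comparison with controls, 3 in each had an unadjusted p under 0.05, and the number of all genes called was 3776 for transgenic and 1668 for knockout-labelled mice. In knockout-labelled against control mice, 2 members (Dnajb1 and Dnaja1) were called without any 1 of knockout replicates 1 to 4 or control replicates 2, 3 and 5. In these fits 2862 to 3646 of all genes were called.

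Within groups, many members varied together from mouse to mouse, but not in separate sets. Given as a description over the 16 libraries, after each group's mean was taken away, the 15 pairs among Hspa8, Hsph1, Hsp90aa1, Hsp90ab1, Hspe1 and Hspd1 had correlations of 0.76 to 0.94. Hspa1a and Hspa1b had one of 0.94, and Dnajb1 and Dnaja1 one of 0.76. Dnaja1 also had correlations of 0.90 with Hspa8 and 0.78 with Hsph1, and of 0.58 or 0.59 with Hsp90aa1, Hsp90ab1, Hspe1 and Hspd1. Dnajb1 stood apart from the inducible pair, with correlations of -0.08 to Hspa1a and -0.19 to Hspa1b. The values share libraries and scaling factors, and reads of Hspa1a and Hspa1b can be exchanged.

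Without knockout replicate 4, the 15 pairs given first had correlations of 0.54 to 0.93 with a median of 0.73. Other pairs then reached similar values, with 0.94 for Dnaja1 and Hspa8, 0.72 for Dnajb1 and Hspa8, and 0.74 for Hspa1a and Hspe1. Knockout replicate 4 was the highest of all 16 libraries in Hspa8 (2499 CPM), Hsph1 (222.2 CPM), Hsp90aa1 (751.1 CPM), Hsp90ab1 (1827 CPM), Hspe1 (82.6 CPM) and Hspd1 (293.3 CPM). Over the 10 members, its level was a median of 1.72 times the median of the other libraries of its group. Hspa1a at 5.11 CPM, Hspa1b at 9.24 CPM and Dnajb1 at 96.8 CPM lay within the range of the other knockout-labelled libraries. The same library had the highest summed levels of HSP90 co-chaperones (1334 CPM), TRiC subunits (2143 CPM), other mitochondrial chaperones (435.2 CPM) and NK cell markers (368.7 CPM), the greatest depth, and the lowest summed immediate-early level (382 CPM). The part of these features in its heat-shock levels was not tested.

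**Figure D3:**
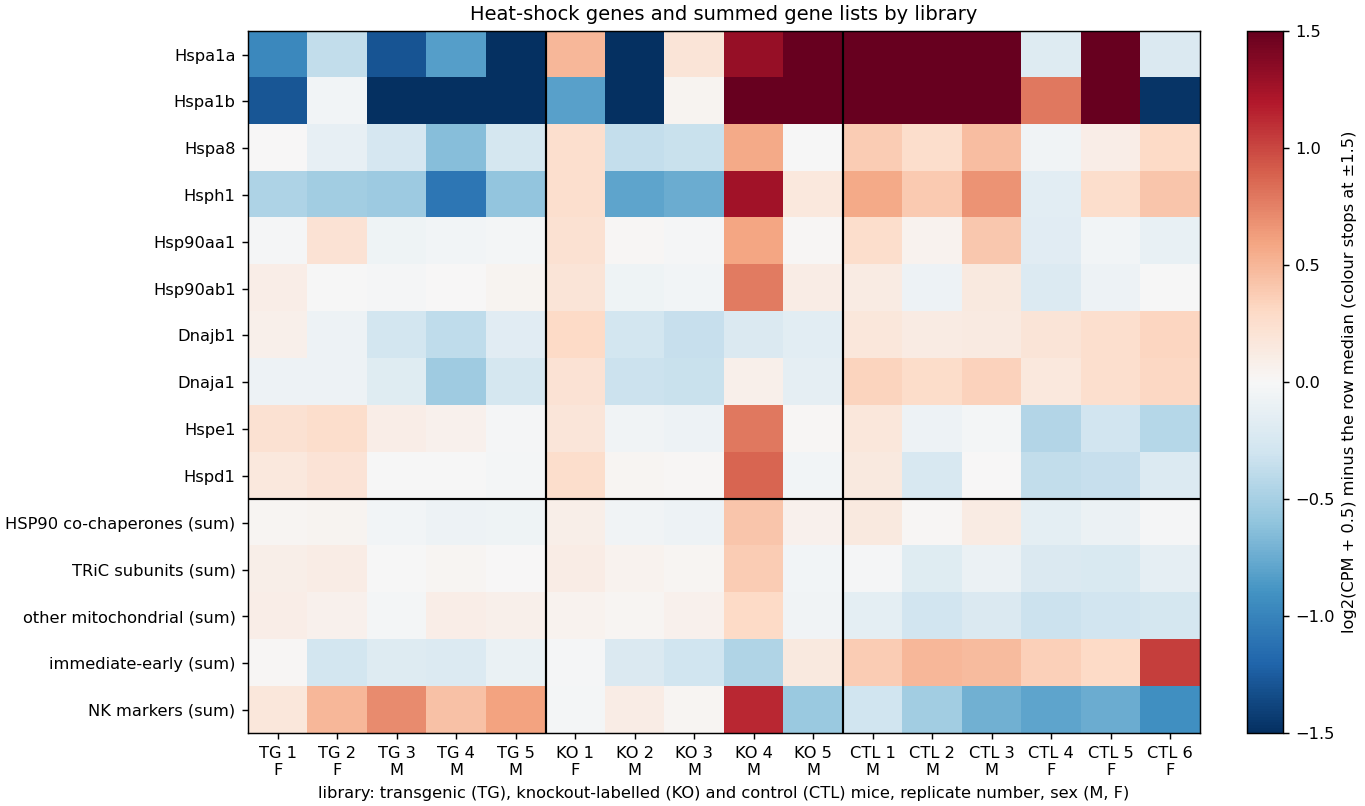
Heat-shock genes (upper rows) and summed gene lists (lower rows) in each library, as log2(CPM + 0.5) minus the row median, with colour stopping at 1.5 either way. Knockout replicate 4 stands out in 6 genes and in the summed co-chaperone, TRiC and NK marker rows, and the 3 control males stand out in Hspa1a and Hspa1b.

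Sex was compared in the 10 transgenic and knockout-labelled libraries, 7 males and 3 females, because the values of control males and females were known when the genes were chosen. Of the 10 members 0 were called by edgeR, 2 had an unadjusted p under 0.05, and 0.0760% of the 14472 genes in this fit were called. DESeq2 called 1, Dnajb1, beside 70 of all genes. Dnajb1 had 86.5 to 100.9 CPM with a median of 92.8 CPM in males and 106.8 to 138.4 CPM with a median of 118.3 CPM in females, with no overlap. Its log2 fold change, male over female, was -0.38 (SE 0.07, 95% interval -0.55 to -0.21, edgeR adjusted p = 0.114), lower in 7 of 7 males than in any female. Dnaja1 had -0.30 (SE 0.10, 95% interval -0.54 to -0.06, edgeR adjusted p = 0.476). The other 8 members had edgeR adjusted p between 0.758 and 0.996. For Hspa1b the interval ran from -3.98 to 3.64, so a large difference in either direction was not resolved with these mice.

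In the controls, described without a test, the inducible pair was higher in every male than in any female. In the other 2 groups the pair had no resolved direction, with log2 fold changes, male over female, of -0.04 (Hspa1a) and -0.17 (Hspa1b). Hspa1a averaged 51.2 ± 16.2 CPM in control males and 3.09 ± 2.81 CPM in control females (SD, n = 3 each), and Hspa1b averaged 101.0 ± 29.1 CPM in control males and 6.40 ± 6.25 CPM in control females. Those are ratios of 16.6 and 15.8. Control males were also above control females in every library for Hsp90aa1 and Hspe1, with ratios of means of 1.28 and 1.33, and below them for Dnajb1, with a ratio of 0.923. The remaining 5 members overlapped. The share of all genes that separated the control sexes in this way was not counted, so nothing is read from the number of members that did. Depth and sex coincided in the controls, with 25052921 to 26586220 estimated counts in males and 17955743 to 18888169 in females, and cannot be told apart there.

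Other genes of the folding machinery were not members and were tested, although these lists too were drawn up with earlier results of the same comparisons known, so the tests are not independent evidence. Of 54 such genes in 8 lists, 48 had enough counts. In transgenic against control mice 14 of the 48 rose and 5 fell (median log2 fold change 0.07), where 23.0% of all genes rose and 15.6% fell. In knockout-labelled against control mice 15 rose and 4 fell (median 0.13), where 16.4% of all genes rose and 10% fell. Between transgenic and knockout-labelled mice 0 were called by edgeR (median -0.04), 1 had an unadjusted p under 0.05, and DESeq2 called 0. The split depended on scaling: with RLE size factors it was 10 higher and 8 lower for transgenic and 13 higher and 6 lower for knockout-labelled over control mice, and with DESeq2 it was 12 and 9, and 15 and 6. Among males alone 3 rose and 5 fell in transgenic and 6 rose and 4 fell in knockout-labelled mice. The fits of males alone called 3160 and 2751 of all genes in these comparisons.

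The genes that rose were mostly chaperonin and mitochondrial genes. The cytosolic chaperonin TRiC folds actin and tubulin, and 5 of its 8 subunit genes rose in transgenic and 6 of 8 in knockout-labelled mice, with 0 lower. Cct7, its eta subunit, had a log2 fold change of 0.29 (SE 0.06, edgeR adjusted p = 0.0018) for transgenic and 0.32 (SE 0.06, edgeR adjusted p = 0.0021) for knockout-labelled over control mice. Of 6 further mitochondrial chaperones and proteases, 5 rose in transgenic and 4 in knockout-labelled mice. Hspa9, the HSP70 of mitochondria, rose by 0.43 (SE 0.08, edgeR adjusted p = 0.0009) and 0.51 (SE 0.09, edgeR adjusted p = 0.00089) on the log2 scale in the same comparisons. Lonp1, a protease of the mitochondrial matrix, rose by 0.32 (SE 0.06, edgeR adjusted p = 0.00035) and 0.29 (SE 0.06, edgeR adjusted p = 0.0022). With RLE size factors 2 TRiC genes were called in transgenic mice against controls, and among males alone 0 in transgenic and 1 in knockout-labelled mice. Of the mitochondrial genes 1 was called in transgenic and 2 in knockout-labelled mice among males alone, where Hspa9 lost its transgenic call (0.32, edgeR adjusted p = 0.11), and Lonp1 lost its knockout-labelled call without the 3 control males (0.20, edgeR adjusted p = 0.14). Cct7 lost its transgenic call among males alone (0.20, edgeR adjusted p = 0.157).

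Partners of HSP70 and HSP90 mostly did not pass the test, and those that did moved both ways. Of 14 HSP70 co-chaperone genes, Bag1 and Hspbp1, which encode nucleotide exchange factors, rose in transgenic and in knockout-labelled mice, with log2 fold changes of 0.29 and 0.24 for Bag1 (edgeR adjusted p = 0.0013 and 0.0084) and 0.47 and 0.50 for Hspbp1 (edgeR adjusted p = 0.0032 and 0.0041). Bag1 lost both calls without the 3 control males (0.23 and 0.17, edgeR adjusted p = 0.0702 and 0.249), and Hspbp1 lost its transgenic call among males alone (0.22, edgeR adjusted p = 0.284). Dnajb4, a J-domain gene related to Dnajb1, fell by 0.49 (SE 0.08, edgeR adjusted p = 0.00033) in transgenic and by 0.30 (SE 0.09, edgeR adjusted p = 0.017) in knockout-labelled mice, and the second call was lost without control replicate 3 (edgeR adjusted p = 0.0561) and without the 3 control males (-0.18, edgeR adjusted p = 0.394). Of 10 HSP90 co-chaperone genes, 1 was called. Chordc1 fell by 0.41 (SE 0.10, edgeR adjusted p = 0.0035) in transgenic and by 0.30 (SE 0.10, edgeR adjusted p = 0.033) in knockout-labelled mice, the second call being lost without knockout replicate 3 or control replicate 1, 2 or 3 (edgeR adjusted p of 0.0523 to 0.0877). Without the 3 control males both calls were lost, at log2 fold changes of -0.19 (edgeR adjusted p = 0.257) and -0.04 (edgeR adjusted p = 0.875).

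Of 4 other HSP70 and HSP110 genes tested, Hspa4l, an HSP110 relative of Hsph1, fell by 0.48 (SE 0.07, edgeR adjusted p = 8.9e-05) in transgenic and by 0.34 (SE 0.07, edgeR adjusted p = 0.0024) in knockout-labelled mice, and the second call was lost without the 3 control males (-0.19, edgeR adjusted p = 0.209). Hspa1l, a neighbour of the inducible pair expressed mainly in testis, was called higher in knockout-labelled mice (log2 fold change 0.54, SE 0.19, edgeR adjusted p = 0.047). That call was lost when any of 13 single libraries was left out (edgeR adjusted p of 0.0554 to 0.174). It was also lost with DESeq2, RLE size factors, no filter, the stricter filter or the replicate block. Fitting only the 2 groups compared, only males, or all but the 3 control males lost it too. The small heat-shock gene Hspb6 was the 1 of 5 in its list with enough counts. It rose by 0.83 (edgeR adjusted p = 0.00019) in transgenic and 0.75 (edgeR adjusted p = 0.0012) in knockout-labelled mice on the log2 scale. The second call was lost without the 3 control males (0.49, edgeR adjusted p = 0.0964). Levels were low, as all 5 genes together summed to 4.10 to 4.97 CPM in transgenic, 3.40 to 5.04 CPM in knockout-labelled and 2.00 to 3.06 CPM in control libraries. Ubb, a polyubiquitin gene, was higher by 0.15 (SE 0.04, edgeR adjusted p = 0.016) in transgenic and by 0.13 (SE 0.05, edgeR adjusted p = 0.041) in knockout-labelled mice on the log2 scale. The transgenic call was lost when any of 6 single libraries was left out (edgeR adjusted p of 0.0543 to 0.111) and the knockout-labelled call when any of 12 was (0.0531 to 0.172), and without the 3 control males both were lost (0.0595 and 0.136).

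**Figure D4:**
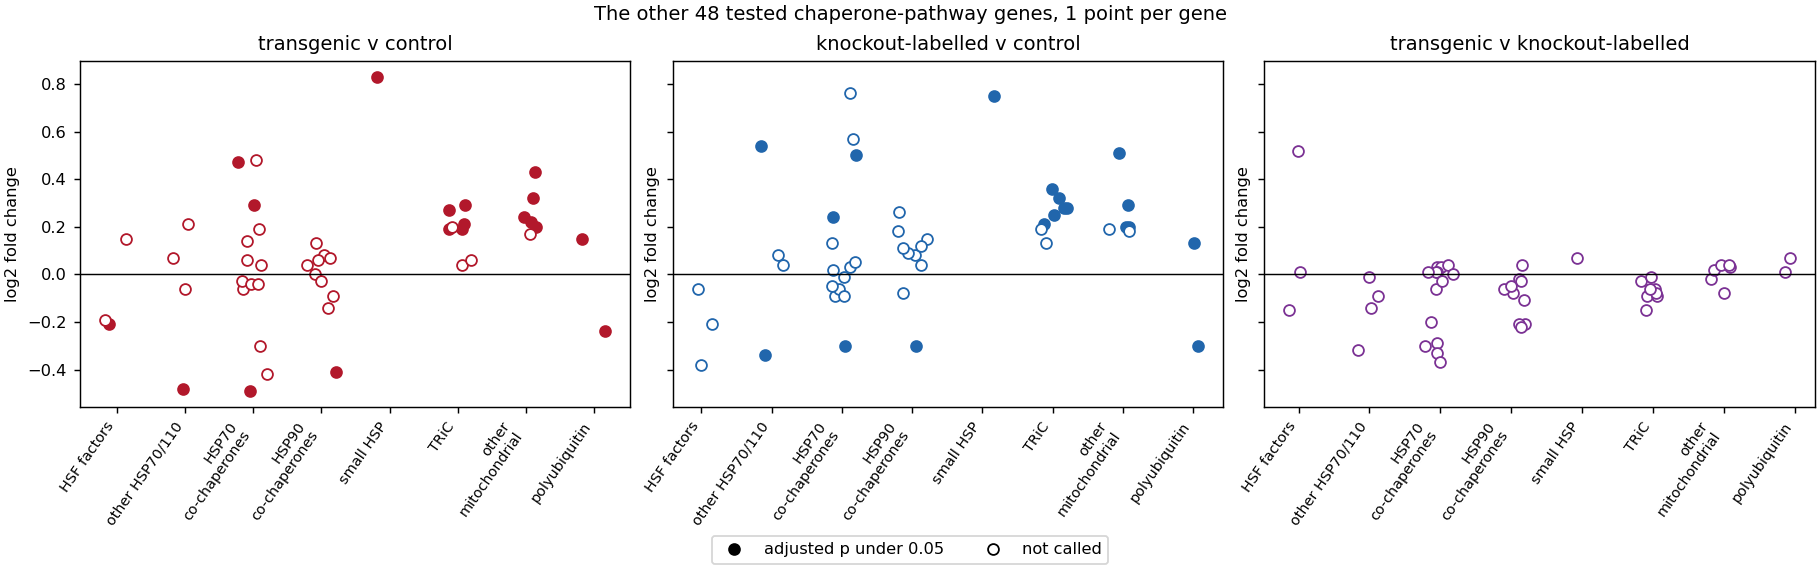
Log2 fold changes of the 48 tested chaperone-pathway genes outside the list, by gene group, for transgenic over control, knockout-labelled over control and transgenic over knockout-labelled mice. Filled points have an edgeR adjusted p under 0.05. All called TRiC and mitochondrial genes lie above 0, and no point is filled in the last panel.

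Hsf1, which encodes the heat-shock transcription factor itself, averaged 35.5 ± 3.48 CPM in transgenic, 39.3 ± 4.55 CPM in knockout-labelled and 41.1 ± 1.44 CPM in control libraries (SD, n = 5, 5 and 6). Its log2 fold change was -0.21 (SE 0.08, edgeR adjusted p = 0.036) for transgenic over control mice and -0.06 (SE 0.08, edgeR adjusted p = 0.59) for knockout-labelled over control mice. The call was lost when transgenic replicate 2 (edgeR adjusted p = 0.0625), transgenic replicate 4 (0.0534) or control replicate 4 (0.0564) was left out, among males alone (0.226) and without the 3 control males (0.109). Hsf2 missed the threshold in both comparisons with controls (log2 fold change -0.19 and -0.21, edgeR adjusted p = 0.07 and 0.074), and it was called lower in both with DESeq2, RLE size factors or the stricter filter. HSF1 is regulated mainly through its protein, which RNA counts do not show.

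Markers of other cells moved with the groups and stand beside all of these values. Summed B cell markers were at 5.63 to 28.0 CPM in transgenic, 3.11 to 3.93 CPM in knockout-labelled and 4.37 to 6.30 CPM in control libraries, with 4 of 5 called higher in transgenic and 2 of 5 called lower in knockout-labelled than in control mice, beside the shares of all genes given above. Macrophage and monocyte markers were at 10.6 to 16.9, 2.80 to 6.85 and 3.92 to 7.57 CPM in transgenic, knockout-labelled and control libraries, with 4 of 5 called higher in transgenic mice. Dendritic cell and class II markers were at 31.5 to 57.5, 4.52 to 55.3 and 2.45 to 15.7 CPM, with 4 of 5 called higher in transgenic and 2 of 5 in knockout-labelled mice against controls. NK cell markers were at 189.1 to 275.4, 114.1 to 368.7 and 88.5 to 135.9 CPM, with Gzma called higher in both. For thymic epithelial, erythroid, and stromal and endothelial markers, 2 of 5, 3 of 4 and 2 of 5 had enough counts and 0 were called. Foxn1, Col3a1 and Pdgfra stayed under 0.1 CPM in every library. With no filter, Krt8 and Cdh5 were called higher in transgenic than in control mice, and with the replicate block Epcam was. The part of these cells in the heat-shock levels was not tested.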

How the data were processed

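Reads from stranded RNA libraries, 1 per sorted sample, were processed against GRCm38 (mm10) with tools that, per the submitters' processing notes, included edgeR 3.24.3, SAMtools 0.1.18 and Bowtie 1.0.0. The sources used here do not name the counting program. The authors deposited 1 estimated count per library for each of 46517 gene identifiers, beside a deposited TPM value, and TPM summed to 1000000 in each library. A GENCODE annotation of GRCm38 gave symbols for 46005 identifiers, and the other 512 held 0.171% of the counts. Whole numbers, within 1e-06, made up 58.7% of the nonzero estimated counts.

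The estimated counts were rounded and tested with the edgeR 4.0.16 quasi-likelihood test (robust, R 4.3.3) after edgeR's filter by group and TMM scaling, with group and sex fitted over all 16 libraries (12 residual degrees of freedom, common biological coefficient of variation 0.128). Two-sided p-values were adjusted by Benjamini-Hochberg over all 14933 genes, at a threshold of 0.05, which is what "called" means. Sex was tested in 10 libraries (14472 genes, 7 residual degrees of freedom). CPM is on TMM-scaled library sizes, and the SE is the log2 fold change over the square root of F. Deposited TPM values were used only to set genes side by side and, for the HSP90 genes, to set groups beside their CPM values. The test was checked on simulated counts. Replicates are separate mice by their identifiers, and chi-square per degree of freedom between libraries of a group was 4.55 to 79.7, so none was a repeat.

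The members and lists were chosen with earlier results of these data known. Named genes were the members, Nfkbid, Hsf1, Fos, Jun, the closest profiles and the smallest p-values of each list. Hspa14 had no match in the annotation. Results for some single genes of the lists are left out here. Alternatives were DESeq2 1.42.0, RLE size factors, no filter, a stricter filter (1 CPM in 5 libraries), leaving out the sex term, fitting 2 groups at a time, males alone, a replicate block and leaving out each library. Added after seeing the data was the fit without the 3 control males.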

Additional observations from a re-analysis of the deposited data

Results flagged for a closer look

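In groups of 5 or 6 mice, 7 of the 30 combinations of member and group had a library that stood apart from the rest by Dixon's test at 95%. Chance gives about 1 in 20 for separate combinations. These were not separate, since the members share libraries and vary together, so 1 library can be flagged in several members. Knockout replicate 4 was the highest of its group in Hsp90ab1 at 1827 CPM (others 1018 to 1224), in Hspe1 at 82.6 CPM (others 45.0 to 54.0) and in Hspd1 at 293.3 CPM (others 155.3 to 191.9). Knockout replicate 1, the female of that group, was the highest in Dnajb1 at 138.4 CPM (others 88.6 to 100.9). Transgenic replicate 2, a female, was the highest of its group in Hspa1b at 2.80 CPM (others 0.337 to 0.896) and in Hsp90aa1 at 577.8 CPM (others 473.7 to 491.5). Transgenic replicate 4, a male, was the lowest in Hsph1 at 43.7 CPM (others 61.6 to 67.1).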

How the results depend on the processing

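The members called in knockout-labelled against control mice numbered 4, and 2 with no filter, 2 with the replicate block, 0 without the 3 control males and 2 to 5 when single libraries were left out. With DESeq2 and without the sex term, 1 of those called was Hspd1, which was higher. Of all genes, 3942 were called in this comparison, 3195 with no filter, 4129 with the replicate block and 1668 without the 3 control males. The number of all genes called was 2751 in males alone and 2862 to 4253 with single libraries left out. In transgenic against control mice the members called numbered 6, 0 without the 3 control males, 4 with the replicate block or no filter, 5 in males alone and 4 to 7 when single libraries were left out. All genes called there numbered 5765, 3776 without the 3 control males and 5891 with the replicate block. They numbered 5304 with no filter, 3160 in males alone and 4687 to 5965 with single libraries left out. Between transgenic and knockout-labelled mice the members called numbered 0 under all alternatives run, where 106 to 342 of all genes were called. For male over female the members called numbered 0, except 1 (Dnajb1) with DESeq2 and 1 with no filter. In those 2 fits 70 and 22 of all genes were called. Log2 fold changes of Hspa1a and Hspa1b for knockout-labelled over control mice changed sign without the 3 control males, to 0.626 and 0.484. Among males alone Hspa1a stood at -6.80 and Hspa1b at -7.89 for transgenic over control mice. Of the other chaperone genes, 19 were called in knockout-labelled against control mice, 10 in males alone, 9 without the 3 control males and 13 to 21 with single libraries left out. In transgenic against control mice 19 were called, 8 in males alone and 14 to 24 with single libraries left out. Fewer samples enter the fits of males alone and without the 3 control males, and the cause of the moves was otherwise not tested. Replicate numbers shared between groups did not pair the mice: of 15 same-number pairs 4 had a correlation of deviations above 0.1 (range -0.164 to 0.345), so the replicate block joins mice that share only a number. No scaling alternative moved the median of all genes by over 0.034 on the log2 scale. The depth leaves Hspa1a and Hspa1b at 4 to 72 estimated counts per library in transgenic mice, which limits how far below controls they can be placed.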
